A study of Mus musculus with 20 samples.

Results

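The transcripts of 10 genes of mitophagy and autophagy were described in whole hearts of control mice and of mice with iron-deficiency anemia (IDA mice). The genes were *Bnip3*, *Bnip3l*, *Fundc1*, *Pink1*, *Park2*, *Ulk1*, *Sqstm1*, *Map1lc3a*, *Map1lc3b* and *Epg5*. They were taken by name from the count table, 10 of its 23420 genes, and all 10 passed the filter on low counts that 13590 genes passed (at least 1 CPM in at least 10 mice, CPM being read pairs scaled to the size of each library). All mice were wild-type C57BL/6 males aged 9 weeks that received their diet for 6 weeks from the age of 3 weeks, with 10 mice on the control diet and 10 on the iron-deficient diet. The deficient diet holds below 2 ppm iron in one label field and above 2 ppm in another. Iron deficiency and anemia came together in these mice and cannot be told apart. The study left out a mouse from each group for contamination without naming it, so all 20 mice were kept. The question was how the heart's transcriptome differs in iron-deficiency anemia.

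Mitophagy is the delivery of damaged or surplus mitochondria to the lysosome. Receptors in the outer mitochondrial membrane (BNIP3, its relative NIX encoded by *Bnip3l*, and FUNDC1) bind LC3 proteins on the growing autophagosome directly, and all are known for their part in mitophagy under low oxygen. *Bnip3* is a classic target of the hypoxia-inducible factor HIF, and NIX removes mitochondria from maturing red blood cells. In the other route the kinase PINK1 accumulates on depolarised mitochondria and activates the ubiquitin ligase parkin, named *Park2* in the count table. Both routes meet the general autophagy machinery, from the initiating kinase ULK1 through the LC3 proteins and the cargo adaptor p62 (*Sqstm1*) to EPG5, a tether that joins autophagosomes to lysosomes. Heart muscle, rich in mitochondria, depends on this turnover.

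Total counts lay between 6797180 and 8960688 read pairs in control hearts and between 6682177 and 7833916 in IDA hearts. A property of the libraries moved with the diet: the log2 values of a mouse rose by 0.020 to 0.20 per doubling of gene length in every control mouse, relative to each gene's mean over all mice, and changed by -0.25 to -0.025 in every IDA mouse. A second value with this trend removed (length-corrected) is therefore given beside the log2 fold changes and counts of the genes described. The libraries carry numbers, of a meaning not given, that fall into a lower run (5 control and 7 IDA mice) and a higher run (5 control and 3 IDA mice), and values within each run are also given. Summed cardiomyocyte markers lay between 6070 and 9312 CPM in control hearts and between 4910 and 7751 CPM in IDA hearts, with 0 of 8 markers higher and 2 lower. The 2 were the long genes *Ryr2* (log2 fold change -0.51) and *Ttn* (-0.79), which were called higher length-corrected (0.28 and 0.57), where 3 of the 8 markers were higher and 3 lower. Summed erythroid markers lay between 292.6 and 364.7 CPM in control hearts and between 338 and 763.8 CPM in IDA hearts. Of 3 tested markers, 2 were higher and none lower, also length-corrected. The globin genes *Hbb-b2*, *Hba-a1* and *Hba-a2* were at 0 in all mice, and *Hbb-b1* had 0 to 1 read pairs per mouse. Why the globin counts were so low was not tested. In whole tissue, fewer cells of a type and less RNA per cell cannot be told apart.

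The promoters of *Bnip3*, *Map1lc3b* and *Sqstm1* are shown because they hold different numbers of the core letters bound by HIF. The sequences are the 250 bases before the annotated start in RefSeq (GRCm38.p6, the assembly also called mm10), written 5′ to 3′ on the strand of the gene, and capitals mark ACGTG or GCGTG on either strand. The *Bnip3* window is chr7:138909507-138909756 on the minus strand, the *Map1lc3b* window chr8:121590188-121590437 on the plus strand, and the *Sqstm1* window chr11:50210821-50211070 on the minus strand.
Bnip3: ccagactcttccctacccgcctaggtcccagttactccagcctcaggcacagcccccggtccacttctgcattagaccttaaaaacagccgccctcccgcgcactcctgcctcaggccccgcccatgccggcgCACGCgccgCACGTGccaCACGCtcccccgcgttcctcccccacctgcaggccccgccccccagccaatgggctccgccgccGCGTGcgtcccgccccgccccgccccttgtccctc
Map1lc3b: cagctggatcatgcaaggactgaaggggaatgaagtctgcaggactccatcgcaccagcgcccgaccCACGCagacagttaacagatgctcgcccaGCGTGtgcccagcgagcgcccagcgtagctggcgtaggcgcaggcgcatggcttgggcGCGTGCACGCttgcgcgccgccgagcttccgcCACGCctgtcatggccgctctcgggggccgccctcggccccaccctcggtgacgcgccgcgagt
Sqstm1: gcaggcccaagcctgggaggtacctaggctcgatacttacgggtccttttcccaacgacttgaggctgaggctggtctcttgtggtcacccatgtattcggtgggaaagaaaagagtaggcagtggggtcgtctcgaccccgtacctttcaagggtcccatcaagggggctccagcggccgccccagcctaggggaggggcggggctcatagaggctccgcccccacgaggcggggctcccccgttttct

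The *Bnip3* promoter held CACGTG, which reads as ACGTG on both strands, 108 bases before the start, and GCGTG at 117, 99 and 35 bases. The *Map1lc3b* promoter held GCGTG at 183, 154, 96, 91 and 64 bases and no ACGTG, with the matches at 96 and 91 bases next to each other on opposite strands. No match was in the *Sqstm1* window. GCGTG was the only match in the *Pink1* window, at 47 bases, and in the *Ulk1* window, at 32 bases. Of 32851 promoters in the table, 16.6% held ACGTG, 28.2% held GCGTG, 38.6% held either, and 6.02% held CACGTG. The *Fundc1* window of the table lies inside the gene as the count table places it, so it was not read. *Bnip3l*, *Park2*, *Map1lc3a* and *Epg5* had no entry. Such matches describe these letters only.

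A gene was called higher or lower when p was below 0.01 in both edgeR and DESeq2 with the same direction. Of the 10 genes, *Bnip3*, *Bnip3l*, *Pink1*, *Map1lc3a* and *Map1lc3b* were higher in IDA hearts, *Fundc1* and *Epg5* were lower, and *Park2*, *Ulk1* and *Sqstm1* did not pass. Thus 5 of 10 were higher where 30.6% of all tested genes were, 2 of 10 were lower where 29.2% were, and 59.8% of all tested genes were called in either direction. With the length correction, 2 were higher (*Bnip3l*, *Ulk1*) and 2 were lower (*Fundc1*, *Epg5*), against 26.7% and 20.4% of all tested genes, with 47.0% called in either direction. *Bnip3l*, *Fundc1* and *Epg5* were called in the same direction with and without the correction. Within the lower run of library numbers 8 of the 10 genes were called, against 50.3% of all tested genes, and within the higher run 2, against 34.3%. The median log2 fold change of the 10 genes was 0.15, or 0.034 length-corrected, and that of all tested genes was 0.023, or 0.038 length-corrected. Below, each log2 fold change is IDA over control. Its standard error was computed as the absolute log2 fold change over the square root of the F statistic from edgeR. Each adjusted p is that of the edgeR quasi-likelihood fit, adjusted after Benjamini and Hochberg across 13590 genes.

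**Figure D1:**
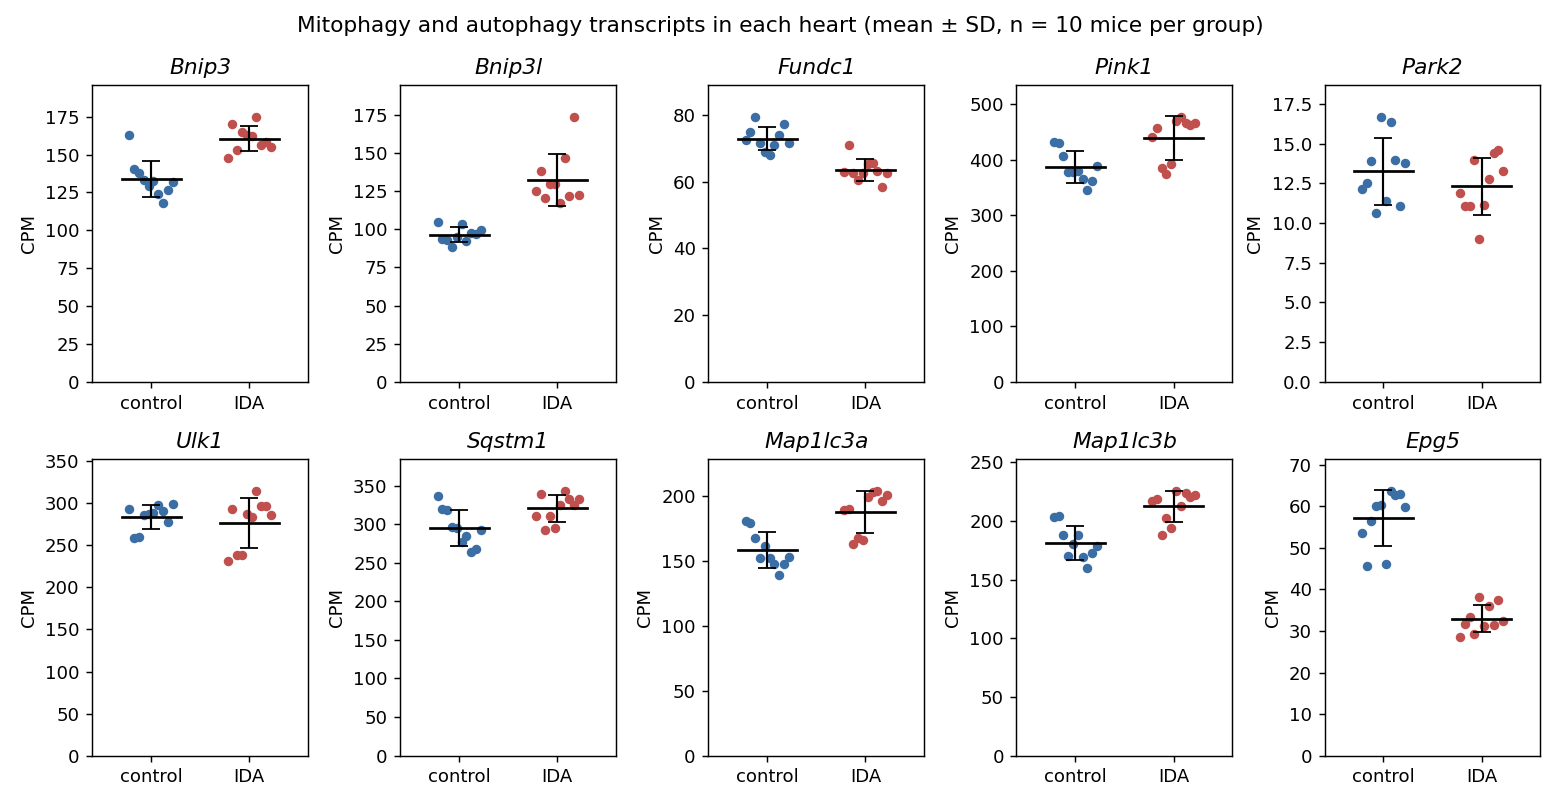
CPM of the 10 genes in each heart, one panel per gene with its own scale from 0. Points are mice (10 control, blue, and 10 IDA, red), long lines are means and bars are SD. The groups are apart for *Bnip3l* and *Epg5* and overlap in the other 8 genes.

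Among the receptors, *Bnip3l* was higher in every IDA heart. The gene lies at chr14:66985240-67008877 on the minus strand and has 3237 exonic bases. Its level in control hearts ran from 88.7 CPM over a median of 96.1 to 104 CPM, and in IDA hearts from 117 over 127 to 174 CPM. No IDA mouse reached down to the control range. Ranges apart were found for 2 of the 10 genes and for 11.3% of all tested genes. The means were 96.5 ± 4.95 CPM (SD, n = 10) and 133 ± 17.0 CPM (SD, n = 10), with a log2 fold change of 0.46 (standard error 0.058, adjusted p = 8.15e-07). The length-corrected value was 0.54 (standard error 0.059, adjusted p = 6.22e-07), again with groups apart. Length-corrected, 5.14% of all tested genes had groups apart. In the lower run of library numbers the log2 fold change was 0.46 and in the higher 0.42, both called.

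*Bnip3*, at chr7:138890836-138909506 on the minus strand with 1756 exonic bases, was higher by a smaller step. Control hearts had 118 to 163 CPM with a median of 132 CPM, and IDA hearts had 148 to 175 CPM with a median of 160 CPM. Every IDA mouse exceeded the control mean and 4 exceeded every control mouse, so the groups overlapped through 1 high control, replicate 1. The means were 134 ± 12.1 CPM and 161 ± 8.15 CPM (SD, n = 10 each), with a log2 fold change of 0.26 (standard error 0.046, adjusted p = 3.18e-05). Length-corrected it was 0.10 (standard error 0.048, adjusted p = 0.0653), which did not pass. With length and GC content both corrected it was 0.13 (adjusted p = 0.0199), called higher. With library size as a covariate it was 0.17 (adjusted p = 0.00175), still called. The difference was 0.35 in the lower run of library numbers, called, and 0.14 in the higher (adjusted p = 0.164), not called.

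*Fundc1* went the other way. The gene lies at chrX:17556569-17572297 on the minus strand and has 1950 exonic bases. Control hearts had 68.2 to 79.5 CPM with a median of 72.1 CPM, and IDA hearts had 58.3 to 70.9 CPM with a median of 62.9 CPM. Of the IDA mice, 9 lay below every control mouse and 1 within the control range. The means were 73.0 ± 3.57 CPM and 63.5 ± 3.35 CPM (SD, n = 10 each), a log2 fold change of -0.20 (standard error 0.039, adjusted p = 9.33e-05). Length-corrected it was -0.33 (standard error 0.040, adjusted p = 1.49e-06), with the groups apart, as in 5.14% of all tested genes on that scale. The values within the runs of library numbers were -0.21 and -0.18, and that of the higher run (adjusted p = 0.0755) was not called.

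The order of these receptors by level therefore changed. Per kilobase of exon, *Fundc1* stood at 37.4 CPM and *Bnip3l* at 29.8 CPM on average in control hearts, and at 32.6 and 40.9 CPM in IDA hearts. The ratio of *Bnip3l* to *Fundc1* per kilobase was 0.799 ± 0.063 in control hearts, from 0.704 to 0.912, and 1.26 ± 0.201 in IDA hearts, from 1.08 to 1.79 (SD, n = 10 each). *Fundc1* was thus the higher of the pair in 10 of 10 control mice and *Bnip3l* in 10 of 10 IDA mice, with the same counts length-corrected. *Bnip3* over *Fundc1* was likewise apart, with 2.04 ± 0.201 in control hearts, from 1.77 to 2.49, and 2.81 ± 0.146 in IDA hearts, from 2.61 to 3.02. *Bnip3* over *Bnip3l* overlapped, with 2.24 to 2.87 in control hearts and 1.68 to 2.55 in IDA hearts. These ratios are given without a test.

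*Bnip3l* was set beside erythroid transcripts, of which *Alas2* and *Slc4a1* were higher in IDA hearts and *Fech* was not called. Mean levels in control and IDA hearts were 76.0 and 204 CPM for *Alas2* (log2 fold change 1.42) and 2.74 and 45.2 CPM for *Slc4a1* (4.04). Those of *Fech* were 245 and 228 CPM (-0.10). The erythroid score, the mean log2 CPM of *Alas2*, *Slc4a1* and *Fech*, ran from 4.85 to 5.48 in control hearts and from 5.74 to 7.74 in IDA hearts. Among IDA mice *Bnip3l* had a slope of 0.20 log2 units per unit of the score (standard error 0.049, p = 0.00128, adjusted p = 0.542, edgeR quasi-likelihood test). None of the 10 genes passed an adjusted p of 0.05, and 0.0809% of all tested genes did. *Bnip3l* alone, 1 of 10, was below an unadjusted p of 0.05, as were 4.98% of all tested genes, and no other tool was run. IDA replicate 9 had the highest score, 7.74, and the highest *Bnip3l*, 174 CPM, and without it the slope was 0.13 (adjusted p = 0.355). Among control mice the slope was -0.11 (standard error 0.157). The slope of *Bnip3* among IDA mice was 0.061 and that of *Fundc1* 0.001. When the score entered the fit beside diet, 4 of the 7 called genes lost their call, which left 3 of 10 called where 44.4% of all tested genes were, down from 59.8%. *Bnip3l* had a log2 fold change of 0.19 (adjusted p = 0.0529), *Bnip3* 0.18 (adjusted p = 0.0693), *Fundc1* -0.18 (adjusted p = 0.0417) and *Pink1* 0.20 (adjusted p = 0.0732). *Map1lc3a* (0.28), *Map1lc3b* (0.25) and *Epg5* (-0.92) were still called. The score ranges of the groups do not overlap, so diet and score cannot be told apart in such a fit, and the part of erythroid cells in the result was not tested.

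**Figure D2:**
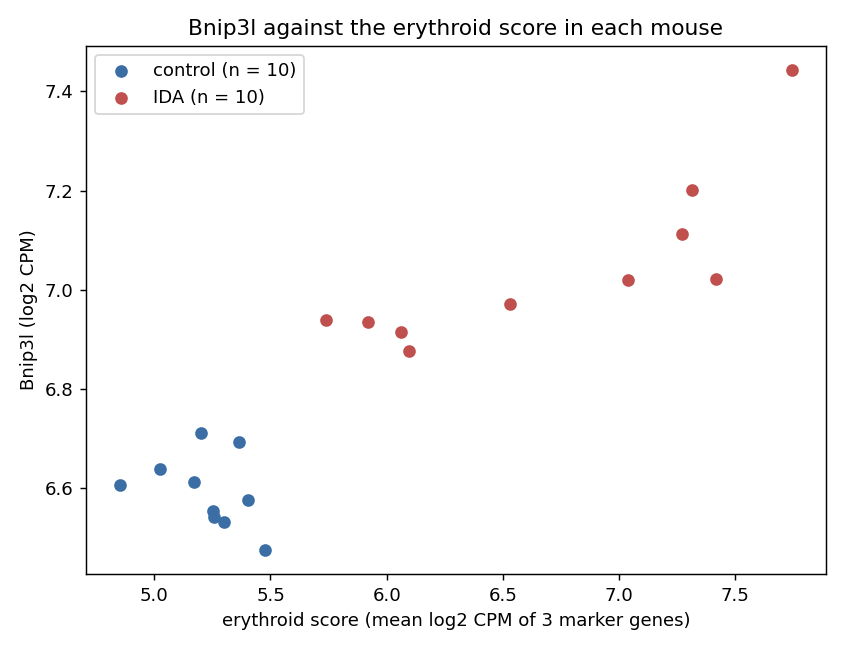
*Bnip3l* level in log2 CPM against the erythroid marker score (mean log2 CPM of 3 genes) in each mouse, control in blue and IDA in red. All IDA mice lie to the right of and above the control mice, and IDA replicate 9 is at the upper right, with a score of 7.74.

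In the PINK1 and parkin route, the kinase was higher and the ligase did not pass. *Pink1*, at chr4:138313410-138326296 on the minus strand with 2366 exonic bases, had 346 to 432 CPM in control hearts with a median of 379 CPM. IDA hearts had 375 to 477 CPM with a median of 460 CPM, 8 of them above the control mean and 7 above every control. The lower IDA mice lay inside the control range. The means were 387 ± 28.3 CPM and 439 ± 39.4 CPM (SD, n = 10 each), a log2 fold change of 0.18 (standard error 0.052, adjusted p = 0.00352). The length-corrected value was 0.13 (adjusted p = 0.0477) and not called. The difference was 0.27 in the lower run of library numbers, called, and 0.065 in the higher (adjusted p = 0.481), and it was 0.037 (adjusted p = 0.302) with library size as a covariate. *Pink1* had the highest level per kilobase of the 10 genes and 1.29 read pairs per exonic base, where the densest gene of at least 200 exonic bases had 2.06 to 2.39 in each mouse. The authors had removed duplicate reads, and the part of this limit in the difference was not tested.

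*Park2*, at chr17:10840384-12063360 on the plus strand with 3201 exonic bases, was the lowest of the 10 genes per kilobase in control hearts. Control hearts had 10.6 to 16.7 CPM and IDA hearts 9.00 to 14.6 CPM, with medians of 13.2 and 12.3 CPM. The groups overlapped over most of their range. The difference was -0.11 on the log2 scale (standard error 0.10, adjusted p = 0.347), and -0.025 length-corrected (adjusted p = 0.852). It had 72 to 136 read pairs per mouse, and its standard error was the largest among the 10 genes.

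*Ulk1* encodes the kinase that starts autophagosome formation. It lies at chr5:110784489-110810081 on the minus strand with 5196 exonic bases. Control hearts had 259 to 299.7 CPM with a median of 288 CPM, and IDA hearts had 231 to 315 CPM with a median of 287 CPM. The IDA mice reached beyond the control range on both sides. On the log2 scale the IDA mean differed by -0.039 (standard error 0.053, adjusted p = 0.527). Length-corrected, it was 0.27 (standard error 0.052, adjusted p = 0.000129), called higher with 8 IDA mice above every control, and with length and GC content both corrected it was 0.038 (adjusted p = 0.561). Its direction therefore depended on the scaling.

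The LC3 genes *Map1lc3a* and *Map1lc3b*, whose products coat the autophagosome and bind the receptors, were both higher. *Map1lc3a*, at chr2:155276364-155278073 on the plus strand with 1045 exonic bases, had 140 to 181 CPM in control hearts and 163 to 204 CPM in IDA hearts, with medians of 153 and 193 CPM. *Map1lc3b*, at chr8:121590468-121598047 on the plus strand with 1712 exonic bases, had 160 to 204 CPM in control hearts and 188 to 226 CPM in IDA hearts, with medians of 179 and 218 CPM. In each gene 7 IDA mice were above every control mouse and 3 fell inside the control range. The log2 fold change was 0.25 for *Map1lc3a* (standard error 0.054, adjusted p = 0.000334) and 0.23 for *Map1lc3b* (standard error 0.046, adjusted p = 0.00015). Length-corrected, *Map1lc3a* had -0.029 (adjusted p = 0.647) and *Map1lc3b* 0.062 (adjusted p = 0.211), neither called, and *Map1lc3a* was called lower (-0.21, adjusted p = 0.00508) with length and GC content both corrected. With library size as a covariate they fell to 0.095 and 0.10, still called (adjusted p = 0.0156 and 0.00415). In the lower run of library numbers both were called (0.37 and 0.30), and in the higher neither was (0.090 and 0.12, adjusted p = 0.347 and 0.206). The ratio of *Map1lc3b* to *Map1lc3a* per kilobase overlapped between the groups, at 0.70 ± 0.0213 in control hearts and 0.69 ± 0.0272 in IDA hearts (SD, n = 10 each). Both genes were dense in reads, with 1.22 read pairs per exonic base for *Map1lc3a* and 0.85 for *Map1lc3b*.

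*Sqstm1*, the adaptor p62 that carries ubiquitinated cargo to LC3, lies at chr11:50200152-50210790 on the minus strand with 2000 exonic bases. Control hearts had 263 to 336 CPM with a median of 294 CPM, and IDA hearts had 292 to 344 CPM with a median of 325 CPM. Of the IDA mice, 9 lay above the control mean, 2 of them above every control mouse, and 1 lay below that mean. This gave a log2 fold change of 0.12 (standard error 0.045, adjusted p = 0.0213). It missed the call because p was 0.0131 in edgeR, while DESeq2 gave 0.0076. It was 0.005 length-corrected (adjusted p = 0.939), and 0.002 with library size as a covariate (adjusted p = 0.961). Within the runs of library numbers it was 0.22, called, and -0.010, not called (adjusted p = 0.913). *Sqstm1* was also dense in reads, with 1.14 read pairs per exonic base.

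*Epg5* showed the largest difference of the 10 genes without the length correction, and with it was behind *Bnip3l*, *Fundc1* and *Ulk1*. It lies at chr18:77938467-78035027 on the plus strand, and with 9672 exonic bases it is the longest of them. Control hearts had 45.5 to 63.8 CPM with a median of 59.9 CPM, and IDA hearts had 28.4 to 38.1 CPM with a median of 32.0 CPM. Every IDA mouse was below every control mouse. The means were 57.1 ± 6.68 CPM and 32.9 ± 3.30 CPM (SD, n = 10 each), which is 0.576 of the control level, with a log2 fold change of -0.80 (standard error 0.070, adjusted p = 1.32e-07). Length-corrected it was -0.19 (standard error 0.044, adjusted p = 0.000746), still called lower, with 9 of 10 IDA mice below every control. In the runs of library numbers it was -0.81 and -0.84, both called.

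**Figure D3:**
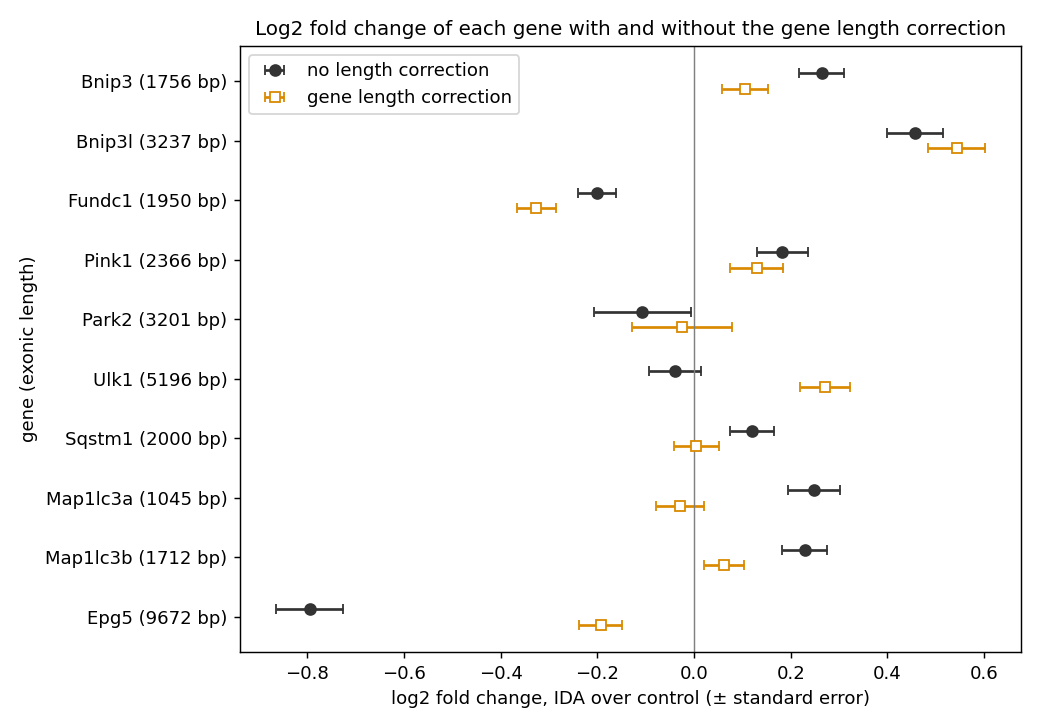
Log2 fold change (IDA over control) of the 10 genes with standard errors, without and with the gene length correction. *Bnip3l*, *Fundc1* and *Epg5* keep their side of 0 and their call, and *Epg5* moves from -0.80 to -0.19.

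**Figure D4:**
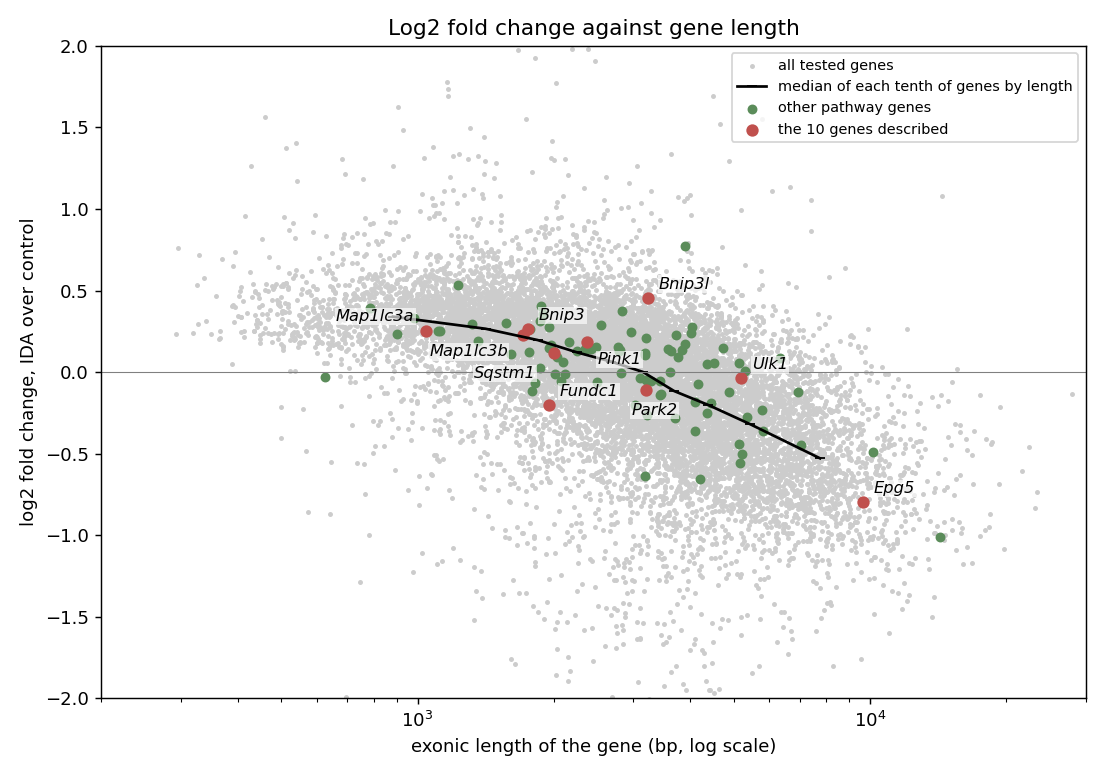
Log2 fold change (IDA over control) against exonic length (log axis) for the tested genes in grey, the pathway genes in green and the 10 genes in red, with the median within bins of equal gene number by length in black. The median falls with length. *Bnip3l* lies above it, *Fundc1* below, and *Epg5* at the long end, and 50 genes lie outside the axes.

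By level per kilobase of exon, the 10 genes ran over a wide range in control hearts. *Pink1* (163 CPM per kilobase), *Map1lc3a* (152), *Sqstm1* (148) and *Map1lc3b* (106) stood at the top, each above at least 96.7% of all tested genes. *Bnip3* (76.2), *Ulk1* (54.7), *Fundc1* (37.4) and *Bnip3l* (29.8) were in the middle, and *Epg5* (5.91) and *Park2* (4.14) at the bottom. Among neighbours in this order, the control ranges overlapped for *Pink1* and *Map1lc3a*, for *Map1lc3a* and *Sqstm1*, and for *Epg5* and *Park2*, and were apart for the other 6 pairs. In IDA hearts the same pairs overlapped, and so did *Fundc1* and *Bnip3l*, from 29.9 to 36.4 and from 36.2 to 53.7. *Epg5* was above *Park2* in 10 of 10 control mice and in 2 of 10 IDA mice, but length-corrected in 8 control and 7 IDA mice, so their change of order held on 1 scale only.

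The wider machinery was described with 98 genes in 10 lists, all tested, that include the 10 genes. Of them 39 were higher and 22 lower in IDA hearts, 39.8% and 22.4%, and 37 did not pass, with a median log2 fold change of 0.10. Without the 10 genes, 34 of 88 were higher and 20 lower. Length-corrected, 33 of the 98 were higher and 15 lower, with a median of 0.058. The uncorrected counts can be read against the 30.6% higher and 29.2% lower of all tested genes, and the length-corrected counts against 26.7% and 20.4%. The same holds for each list below. Without the length correction, the CPM ranges of the groups were apart in 11.3% of all tested genes. Among the pathway genes other than the 10, they were apart in *Atg4c*, *Wdfy3*, *Fkbp8*, *Parl*, *Ykt6*, *Vps18* and *Hexa*.

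In the list of 8 mitophagy receptors, 4 were higher and 2 lower (median 0.23, length-corrected 0.16 with 3 higher and 1 lower). Beside *Bnip3* and *Bnip3l*, the outer membrane receptor *Fkbp8* was higher with groups apart (log2 fold change 0.36, length-corrected 0.22), and *Phb2*, an inner membrane receptor, was higher at 0.19 (length-corrected -0.037, not called). *Bcl2l13*, another receptor of the outer membrane, had -0.12 and turned to 0.32 with the length correction, both called. Of 16 genes around PINK1 and parkin, 6 were higher and 3 lower (median 0.090), and length-corrected 4 were higher and 3 lower (median -0.020). *Parl*, the protease that cleaves PINK1, had 0.30 (length-corrected 0.059), and *Usp8*, a deubiquitinase acting on parkin, had -0.66 (length-corrected -0.45).

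Of the 5 genes of the ULK complex list, 1 was higher and 2 lower (median -0.039), and length-corrected 3 were higher and none lower (median 0.27). *Atg101*, a subunit listed as 9430023L20Rik, had 0.53 (length-corrected 0.28). *Ulk2* and the scaffold *Rb1cc1*, which were lower at -0.36 and -0.45, both had 0.001 length-corrected. The class III PI3-kinase list of 8 had 1 higher, *Becn1* at 0.095, and 1 lower, *Rubcn* (1700021K19Rik), an inhibitor of the complex, at -0.28. Length-corrected, *Becn1* had -0.015 and *Rubcn* 0.052, neither called, and 2 other genes of the list were higher (*Pik3r4* and *Ambra1*) and 1 lower (*Nrbf2*). In the 10 genes of phagophore growth 5 were higher and 1 lower (length-corrected 6 and 1), with the membrane carrier *Atg9b* at 0.77 (length-corrected 0.95) and the lipid transfer protein *Atg2b* at -0.49 (length-corrected 0.13, called higher). The level of *Atg9b* was low, at 3.93 CPM in control and 6.70 CPM in IDA hearts on average. *Atg9a*, at 282 and 300 CPM, was not called at 0.091 and was called higher length-corrected (0.25).

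All 5 genes of the ATG8 family, the LC3 and GABARAP proteins, were higher (median 0.25), and none was called length-corrected (median 0.039). The proteases that process them parted, with *Atg4d* at 0.29 (length-corrected 0.27) and *Atg4b* at 0.25 (length-corrected 0.29) higher and *Atg4c* at -0.64 (length-corrected -0.56) lower with groups apart. Of the 11 genes of that list 4 were higher and 1 lower, with the same counts length-corrected. Of 8 cargo receptor genes, 1 was higher and 4 lower (median -0.13), and length-corrected none was higher and 4 were lower (median -0.064). The lower ones included *Nbr1*, a partner of p62, at -0.44 (length-corrected -0.14), and *Wdfy3*, a very long scaffold gene, at -1.01 (length-corrected -0.26).

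Of 14 tethering and fusion genes, the list that holds *Epg5*, 4 were higher and 5 lower (median -0.040), and length-corrected 6 were higher and 2 lower (median 0.088). *Vamp8*, a SNARE of fusion, was higher at 0.39 (length-corrected 0.058, not called). Its partner *Stx17* was lower at -0.23 and higher at 0.13 length-corrected. Of 13 lysosomal genes 8 were higher and 3 lower (median 0.13, length-corrected 0.058 with 5 higher and 2 lower). *Tfeb*, the transcription factor of lysosome biogenesis, was higher at 0.37 (length-corrected 0.40), and its relative *Mitf* was lower at -0.56 (length-corrected -0.25).

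Since *Bnip3* is a known HIF target, 18 other HIF targets were set beside it. Of these, 7 were higher and 2 lower, with a median log2 fold change of 0.16 (length-corrected 0.15, with 10 higher and 1 lower). That is 38.9% higher and 11.1% lower, where 30.6% and 29.2% of all tested genes were, and 50% called where 59.8% were. Length-corrected, 26.7% of all tested genes were higher and 20.4% lower. *Egln3* had 0.74 (length-corrected 0.74), *Ankrd37* 0.99 (length-corrected 0.69) and *Pfkfb3* -0.72 (length-corrected -0.40), all called on both scales. *Hk2* was called lower at -0.17 and called higher at 0.17 length-corrected. *Ldha* was called higher at 0.22 (length-corrected 0.09, not called), and *Ndufa4l2* at 0.60 (length-corrected 0.30, called). *Pdk1* was not called at -0.11 and was called higher at 0.195 length-corrected.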

How the data were processed

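Poly(A) RNA from whole hearts was sequenced in paired reads. Alignment was to mm10 by STAR, duplicates were discarded, and featureCounts (version 1.4.5-p1) counted read pairs over the exons of each gene, unstranded. The authors deposited these counts without normalization, with each gene's exonic length. Duplicate removal can limit counts in dense genes. Groups were taken from the diet labels. The 10 genes, the gene lists and the tests were chosen with earlier results of these data known. Counts were scaled by TMM in edgeR (version 4.0.16) and analysed by its quasi-likelihood method and by the Wald test of DESeq2 (version 1.42.0), in R 4.3.3, over 13590 genes. CPM are per effective library size, and log2 CPM used a prior count of 2. The steps were tested on simulated data. For the length correction, deviations of each mouse were smoothed on log2 exonic length by loess (span 0.5, degree 1) and the curve was subtracted, which removes a trend of any origin. Other genes are named where they had the 2 highest or 2 lowest changes among called genes of a list. *Pik3r4*, *Ambra1*, *Nrbf2*, *Ykt6*, *Atg9a* and genes of marker and HIF lists were named after their values were seen. No exon of the 10 genes overlapped another gene's. Each sample was a separate mouse. No mice had identical counts. Of the erythroid markers chosen, 2 are not reported here and were left out of the score and the marker sums after the data were examined.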

Additional observations from a re-analysis of the deposited data

Results flagged for a closer look

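In the 20 groups of 10 mice (10 genes, control and IDA), the highest or lowest value was set against the others by Dixon's gap ratio, where chance alone gives about 1 flag in 20 groups. *Bnip3* in control replicate 1, at 162.669 CPM, stood above the next control at 140.621 CPM with a gap ratio of 0.497, over the 95% critical value. Without this mouse the log2 fold change of *Bnip3* was 0.30 (adjusted p = 1.33e-06 from edgeR). *Bnip3l* in IDA replicate 9, at 173.738 CPM, stood above the next IDA mouse at 146.773 CPM with a gap ratio of 0.477. Without it the log2 fold change of *Bnip3l* was 0.41 (adjusted p = 7.22e-07 from edgeR). The same mouse had the highest erythroid score.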

How the results depend on the processing

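Of the 10 genes, 5 were called higher and 2 lower. The number called higher was 2 with the length correction, 2 with the erythroid score and 2 with the length and GC correction (*Bnip3* and *Bnip3l*). It was also 2 with the score of *Alas2* and *Slc4a1* alone. All tested genes called higher numbered 4158, and in these settings, in the same order, 3622, 2934, 3201 and 2798. The number called lower was 1 with either score, while all tested genes called lower numbered 3100 and 2962, instead of 3973. With library size as a covariate, 25 pathway genes instead of 39 were called higher, and 3314 of all tested genes. With the score of 2 genes, 25 pathway genes were called higher, and 2798 of all tested genes. With the length and GC correction, 13 pathway genes instead of 22 were called lower, and 2287 of all tested genes. The GC correction, the score of 2 genes and the library number block were chosen after seeing the data. Directions reversed for *Ulk1* (0.271) and *Map1lc3a* (-0.029) with the length correction, and with length and GC for *Pink1* (-0.029), *Ulk1* (0.038), *Sqstm1* (-0.050) and *Map1lc3a* (-0.207). The cause was not tested. Leaving out 1 mouse gave 5 to 6 genes higher and 2 to 2 lower, 34 to 42 pathway genes higher and 22 to 23 lower, and 0 to 0 genes that followed the erythroid score. *Sqstm1* was called higher without control replicate 1, 2 or 3 or IDA replicate 3 or 5 (0.13 to 0.14), and by either package alone at an adjusted p of 0.05. It was also called higher with the library number block (0.137, adjusted p = 0.00879 from edgeR). With that block 6 of the 10 genes were higher and 2 lower, and of all tested genes 4188 were higher and 3983 lower. Replicate numbers did not pair the mice (correlations of same-numbered mice from -0.278 to 0.264, over 0.1 in 3 of 10 pairs, with 3 controls correlating best with their own number). With the replicate number as a block, 5 genes were higher and 2 lower, with 34 and 22 of the pathway. *Park2*, with 72 to 136 read pairs per mouse, had the largest standard error of the 10 genes.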
